A study of Oryza sativa with 4 samples.

Results

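Protein phosphatases are the enzymes that take phosphate groups off proteins, and they were followed here in wild-type rice shoots kept for 10 min at 22 °C or at 42 °C. Members were the loci with a description that names a protein phosphatase, a serine/threonine or tyrosine phosphatase, or phosphatase 2A or 2C, and that does not mention calmodulin or an EF hand. This gave 85 of the 10455 loci in the deposited table, with 126 transcripts. Of these, 39 loci were described as PP2C and 46 as other protein phosphatases or their subunits. The shoots came from plants 2 weeks old, whose pots were turned over so that the shoots stood in water at either temperature. Shoots of several plants were harvested together for each of the 4 ribosome footprint libraries, 2 at each temperature, described as biological replicates. The submitters state that the libraries were made to determine how translational efficiency changed with temperature.

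Each transcript has 1 deposited score at each temperature. The scores are taken as translational efficiency, that is, ribosome footprints relative to RNA, because the design text states that purpose. No header gives the formula, and a log step cannot be told from the scores. There is no value per library, so no value below has a replicate error, no difference has a test, and the depth behind each score is unknown. Scores of the transcripts of a locus were averaged, and a locus was called higher or called lower when its score at 42 °C was 2-fold or more above or below that at 22 °C. The table does not list footprints and RNA separately, so their parts in a ratio cannot be told apart. Of loci described as green shoot proteins, all 11 light-harvesting and all 5 Rubisco small subunit loci were above 0 at both temperatures.

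Plant protein phosphatases fall into several families. PP2C enzymes need magnesium or manganese ions and act as single chains. Some of them hold the SnRK2 kinases of the abscisic acid pathway inactive until the hormone and its receptor bind the phosphatase. PP1 and PP2A belong to a separate family, in which a small, highly conserved catalytic subunit is directed to its targets by regulatory subunits. Tyrosine phosphatases use a cysteine in the active site, and their dual-specificity relatives act on phosphotyrosine as well as on phosphoserine and phosphothreonine, among others in MAP kinases.

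PP2C loci were balanced between the temperatures, whereas the catalytic subunits of the PP1 and PP2A family were nearly all lower at 42 °C. Of the 39 PP2C loci, 34 were above 0 at both temperatures, and 18 of these were higher and 16 lower at 42 °C. Of the PP2C loci 5 were called higher and 5 called lower, that is 14.7% each way, against a background of 16.1% called higher and 21.6% called lower among all 9280 loci above 0 at both temperatures. Centred on the median of loci with a mean score of at least 0.2, which subtracts 0.27, 1 PP2C locus was called higher and 8 of the 34 called lower, against 11.6% and 27.1% of all loci. The median log2 ratio of PP2C was 0.07, close to the 0.03 of all loci, and with that centring it was -0.19 against -0.24. Of the 46 other loci, 44 had a ratio: 16 were higher and 28 lower. Of these 5 were called higher (11.4%) and 14 called lower (31.8%), and the median log2 ratio was -0.60. The medians of PP2C and of the others thus lay 0.67 apart on the log2 scale, a difference with no test. It was smaller without loci of low score: among loci with a mean score of at least 0.05 the medians were 0.09 in 22 PP2C loci and -0.07 in 27 others, 0.16 apart, and with 0.1 added to every score the difference was 0.14.

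**Figure D1:**
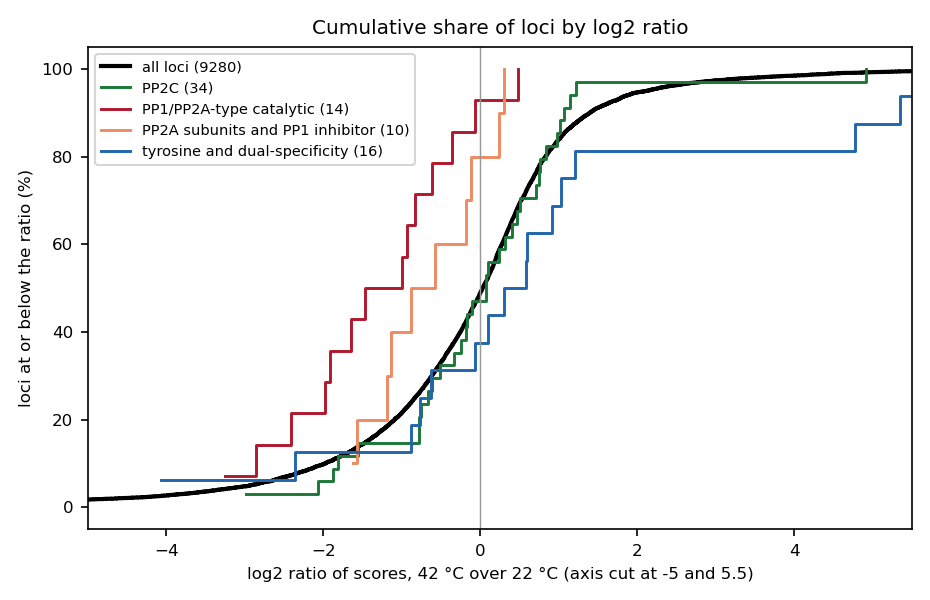
Cumulative share of loci (vertical axis, percent) against the log2 ratio of scores at 42 °C over 22 °C (horizontal axis), for all 9280 loci with a ratio and for 4 classes of phosphatase described by the table's own words. The PP2C curve stays close to that of all loci, the curves of PP1/PP2A-type catalytic subunits (median -1.23) and of PP2A subunits with a PP1 inhibitor (median -0.73) lie to its left, and most of the tyrosine and dual-specificity curve (median 0.44) lies to its right.

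Scores of the phosphatases were ordinary to low. The median of the mean scores was 0.0683 in PP2C loci and 0.0602 in the others, against 0.0795 in all 10455 loci. In the 9994 loci above 0 at one or both temperatures it was 0.0879. Of the PP2C loci 18 of 39 reached that median, and of the PP1/PP2A-type catalytic loci 2 of 16 did. The highest mean score among members belonged to Os10g0492800, described only as a member of the Ser/Thr protein phosphatase family, with 0.729 at 22 °C and 0.859 at 42 °C.

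The PP2C loci with the highest scores differed little between the temperatures. Os05g0537400, described as similar to protein phosphatase 2C, had a score of 0.546 at 22 °C and 0.480 at 42 °C. Os01g0552300 had 0.360 and 0.386, and Os04g0321800 had 0.360 and 0.380. In the latter only 1 of the 2 transcripts carries the PP2C description. None of the 8 PP2C loci with a mean score of at least 0.2 was 2-fold apart, and 6 of them were higher at 42 °C; of all 2898 loci at that level with a ratio, 11.6% were called higher, 7.52% were called lower, and 65.7% were higher by any amount. The nearest to 2-fold among those 8 was Os01g0295700, with 0.140 at 22 °C and 0.274 at 42 °C, a log2 ratio of 0.97. Another of them, Os10g0370000, a PP2C-related protein named with its values known, had 0.271 and 0.441 and was higher in both of its transcripts.

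**Figure D2:**
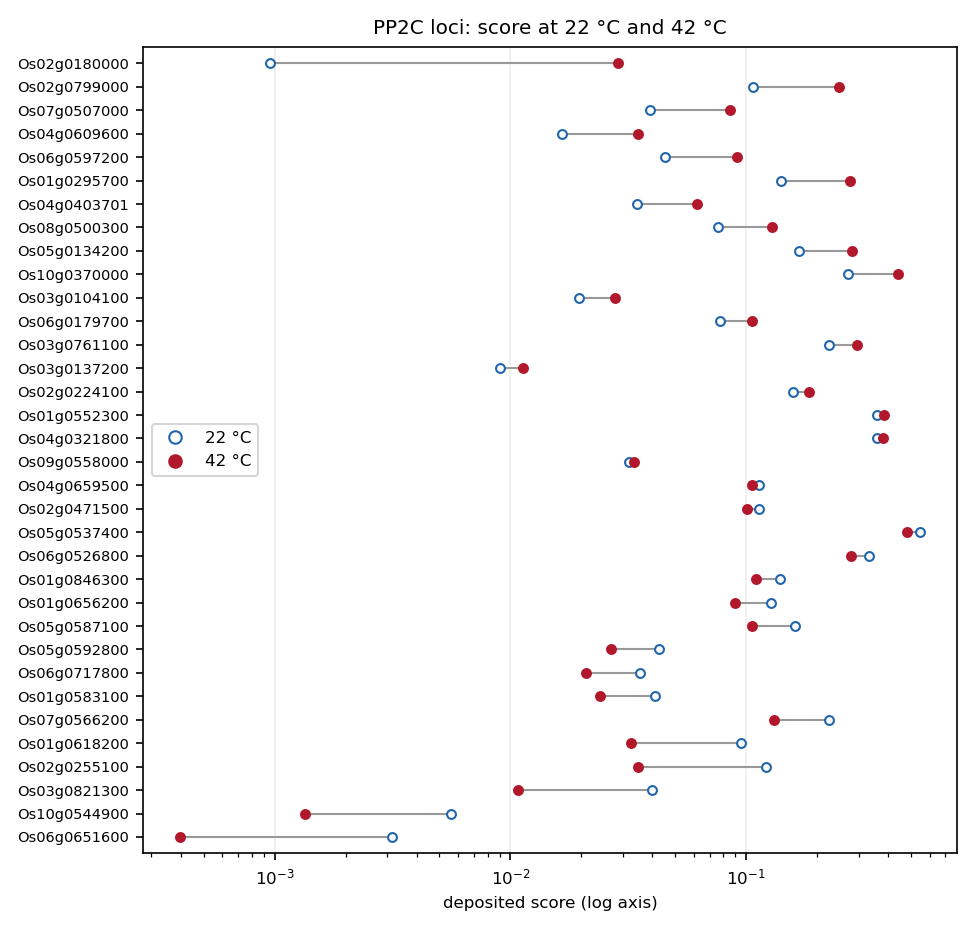
Deposited scores at 22 °C (open circles) and 42 °C (filled circles) of the 34 PP2C loci above 0 at both temperatures, on a log axis, ordered by their ratio with the highest at the top. The locus at the top, Os02g0180000, has a score of 0.000954 at 22 °C, and loci with scores above 0.2 show short lines.

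Among PP2C loci with a mean score of at least 0.05, the highest ratios included loci described as DNA-binding PP2C. Proteins of this kind, first described in tobacco, carry a DNA-binding part beside the phosphatase domain. Os02g0799000 had a score of 0.106 at 22 °C and 0.248 at 42 °C, a log2 ratio of 1.22. Os06g0597200 had 0.0452 and 0.0915, a log2 ratio of 1.02, and Os06g0179700 had 0.0771 and 0.106, a log2 ratio of 0.46. All 3 loci with this description were thus higher at 42 °C, and 2 of them were called higher, where 51.1% of all loci were higher by any amount. Os06g0597200 has a second transcript that is listed at 0 at both temperatures, and Os06g0179700 and the grouping by that description were chosen with the values known. Beside these, Os07g0507000 had 0.0389 and 0.0858 (log2 ratio 1.14) and Os08g0500300 had 0.0758 and 0.128 (0.76). Both are described only as PP2C.

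Below a mean of 0.05, 2 further PP2C loci were called higher, and are named with their values known. They were 16.7% of the 12 PP2C loci with a ratio there, against 20.7% of all loci there. Os02g0180000 had 0.000954 at 22 °C and 0.0287 at 42 °C, and Os04g0609600 had 0.0165 and 0.0347.

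The PP2C loci that were lower at 42 °C include a locus described as mitochondrial. Os02g0255100, a mitochondrial PP2C by its description, had a score of 0.122 at 22 °C and 0.0348 at 42 °C, a log2 ratio of -1.81. Os01g0618200 had 0.0955 and 0.0323, a log2 ratio of -1.56. These were the only PP2C loci called lower with a mean of at least 0.05, 9.09% of 22, against 14.4% of all loci at that level. Os07g0566200 had 0.225 and 0.131 (log2 ratio -0.79) and Os05g0587100 had 0.162 and 0.106 (-0.61), both within 2-fold. The other loci called lower had low scores and are named with these known: Os03g0821300 with 0.0398 and 0.0108, Os10g0544900 with 0.00562 and 0.00134, and Os06g0651600 with 0.00316 and 0.000399. They were 25% of the 12 PP2C loci with a ratio and a mean below 0.05, against 36.3% of all loci there.

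Of the 5 PP2C loci without a ratio, all had scores near the bottom of the table. Os01g0976700 (0.00357 at 22 °C), Os02g0149800 (0.000778) and Os01g0513100 (0.000337), the last described as similar to ABI2, were listed at 0 at 42 °C. Os02g0599700 was listed at 0 at 22 °C and had 0.00184 at 42 °C, and Os01g0164600 was at 0 at both. No fold is given for them.

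A list of 9 loci was drawn up in the plan for PP2C genes of the abscisic acid pathway. Of these, 5 were in the table and 4 were not analysed here. The list was written from memory and could not be checked against an annotation, so which pathway most of these loci belong to is unverified: the table names ABI2, an abscisic acid-insensitive phosphatase first known from Arabidopsis, for only 1 of the 5 and PP2C for the rest. All 5 had lower scores at 42 °C, none of them by 2-fold, where 48.9% of all loci were lower by any amount and 21.6% called lower. Their median log2 ratio was -0.51, with a range from -0.78 to -0.19. Os01g0656200 had 0.127 at 22 °C and 0.0894 at 42 °C, Os01g0846300 had 0.140 and 0.110, and Os01g0583100 had 0.0411 and 0.0239. Os05g0592800, the locus described as ABI2, had 0.0426 and 0.0268. Os05g0537400, described above, had the smallest difference.

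SnRK2 kinases, some of which are substrates of such phosphatases, did not share a direction. Of 10 SAPK loci, as the rice SnRK2 kinases are called, 9 had a ratio. Of these 3 were called higher and 3 called lower (33.3% each way, against 16.1% and 21.6% of all loci), and the median log2 ratio was -0.11. SAPK6 (Os02g0551100) had 0.0253 at 22 °C and 0.121 at 42 °C, whereas SAPK10 (Os03g0610900) had 0.347 and 0.171. The median turned to 0.92 over the 6 SAPK loci with a mean of at least 0.05. Words for abscisic acid receptors took in 12 loci, none of which names such a receptor, and 8 of them match through isopropylmalate in the description, so receptors are not analysed here. The highest and lowest of them with a mean of at least 0.05 were an isopropylmalate dehydrogenase, Os03g0655700 (0.152 and 0.362), and a sinapyl alcohol dehydrogenase, Os10g0430200 (0.468 and 0.0388).

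Catalytic subunits of the PP1 and PP2A family were lower at 42 °C in 13 of the 14 loci with a ratio, and 8 of them were called lower (57.1%, against 21.6% of all loci) and none was called higher. Their median log2 ratio was -1.23, or -1.005 when Os10g0492800, whose wording falls short of the class, was counted among them. Most loci of the class were lower at both levels of score. Among the 8 loci with a mean of at least 0.05, 7 were lower and 3 called lower. Of all loci of that level, 43.5% were lower by any amount and 14.4% were called lower. The 3 called lower were below 0.05 at 42 °C and reached that mean only through their scores at 22 °C. The calls at this level are therefore no separate support for the direction. All 6 loci below that mean were lower and 5 of them called lower, where 36.3% of all loci there were called lower. With 0.1 added to every score the median over 16 loci was -0.27 and no locus was called lower, where 273 of all 9994 loci were.

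PP2A removes phosphates in cell cycle control, hormone signalling and metabolism, and its catalytic subunits held the lowest ratios of the class. Os02g0217600, described as the PP2A-3 catalytic subunit, had a score of 0.0944 at 22 °C and 0.0130 at 42 °C, a 7.27-fold lower score. Os06g0574500, described as protein phosphatase 2A, had 0.108 and 0.0203, 5.32-fold lower. Os01g0691700 had 0.188 and 0.0986, just short of 2-fold (log2 ratio -0.93). Of the loci described as PP2A isoform 4, named with their values known, Os03g0805300 had 0.0280 and 0.00294, and Os10g0410600 had 0.0706 and 0.0672. The sixth, Os03g0167700, also described as PP2A-3, had 0.00146 at 22 °C and was listed at 0 at 42 °C. PP2A catalytic subunits are highly conserved, and whether reads were divided between these loci was not tested.

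PP1 catalytic loci and the smaller subfamilies were mostly lower too. PP1 acts on many nuclear and cytosolic proteins. Os06g0164100, described as PP1, was the only locus of the class with a higher score at 42 °C, with 0.159 at 22 °C and 0.221 at 42 °C. Os01g0349400, also described as PP1, had 0.105 and 0.0681. The other PP1 loci, which the rule for named loci did not pick, had 0.0437 and 0.0140 (Os03g0268000) and 0.0255 and 0.00923 (Os02g0820000). Os12g0617900, with a transcript described as BSL2, a relative of the brassinosteroid-signalling phosphatase BSU1, had 0.0897 and 0.0238, 3.77-fold lower. The loci described as PP-X, the enzyme also called PP4 (Os09g0284200, 0.0499 and 0.0249), and as type 5 phosphatase (Os05g0204900, 0.0154 and 0.00860) were lower as well; both are named with their values known. Os07g0111600 had 0.0788 and 0.0199, but 1 of its 3 transcripts is described as a purple acid phosphatase, and Os05g0144400, a serine/threonine phosphatase by its domain, had 0.0817 and 0.0636; these too were not picked by that rule. Os03g0646900 had 0.00163 at 22 °C and was listed at 0 at 42 °C.

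**Figure D3:**
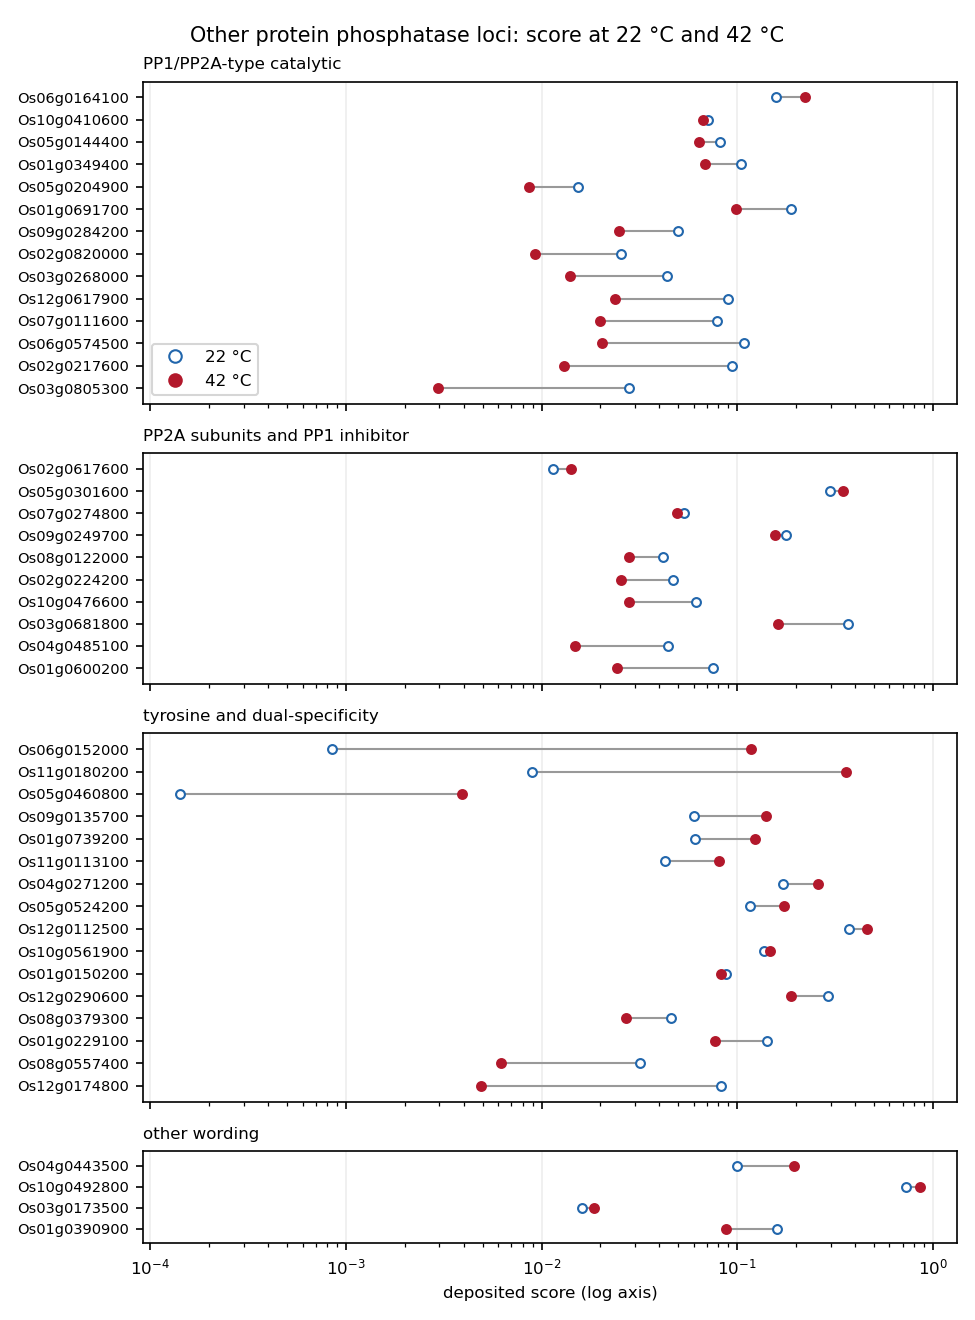
Deposited scores at 22 °C (open circles) and 42 °C (filled circles) of the 44 other protein phosphatase loci above 0 at both temperatures, on a log axis and split by class. In the top panel 13 of 14 filled circles lie to the left of the open ones, and in the panel of tyrosine and dual-specificity phosphatases 10 of 16 lie to the right.

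The regulatory subunits of PP2A decide where and on what the enzyme acts: the A subunit is the scaffold, and B subunits of several kinds bind the substrate. Of the 10 loci in the class of subunits and inhibitors, 8 were lower at 42 °C and 4 called lower, where 48.9% of all loci were lower by any amount and 21.6% called lower. The median log2 ratio was -0.73, and -0.15 over the 4 loci with a mean of at least 0.05. Of those 4, 3 were lower and 1 called lower, against 43.5% and 14.4% of all loci at that level. Os03g0681800, a B subunit of the B56 kind, had the highest mean score of the PP2A subunits among the members. It was lower by 2.28-fold, with 0.370 at 22 °C and 0.162 at 42 °C. It was the only member with a mean at or above the 75th percentile of loci, 0.234, that was called in either direction. The scaffold subunit Os09g0249700 had 0.177 and 0.157, within 2-fold. All 4 loci of the B′ or B56 kind were lower, and so were the single B″ locus and 2 of the 3 B55 loci. The lowest ratios among these, given with their values known, were those of the B55 locus Os01g0600200, with 0.0751 and 0.0243, and of the B′ locus Os04g0485100, with 0.0442 and 0.0148. The exception, Os02g0617600, had 0.0115 and 0.0141, with transcripts that went opposite ways. Put together by description with the values known, 13 of the 14 loci for PP2A catalytic, scaffold and B subunits with a ratio were lower, and 7 were called lower (50.0%), against 48.9% and 21.6% of all loci.

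Proteins that act on these enzymes, or resemble their subunits by description, went both ways. Protein phosphatase inhibitor 2 (Os05g0301600), which binds and inhibits PP1 and is counted in the class above, had 0.297 at 22 °C and 0.349 at 42 °C. Protein phosphatase methylesterase 1 (Os04g0443500), which removes a methyl group from the end of the PP2A catalytic subunit, had 0.0998 and 0.195, a log2 ratio of 0.96. A locus described as similar to a PP2A regulatory subunit but outside the words used here, Os11g0141000, had 0.312 and 0.341. TIP41-like protein (Os03g0760600), of a family that binds a PP2A partner in yeast, had 0.0762 and 0.00616. The last 2 loci were chosen with their values known.

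Tyrosine and dual-specificity phosphatases leaned the other way, with 10 of 16 loci higher at 42 °C and 6 lower. Of these 5 were called higher (31.3%, against 16.1% of all loci) and 2 called lower (12.5%, against 21.6%), and the median log2 ratio was 0.44. When centred on loci with a mean of at least 0.2, 3 of the 16 were called higher and 4 called lower. That centring gave 11.6% called higher and 27.1% called lower among all loci. With each transcript on its own calls were 5 each way over 24 transcripts, against 2044 called higher and 2708 called lower of all 12108. The medians stayed above 0 in both settings, at 0.17 and 0.35. Among the 12 loci with a mean of at least 0.05, 9 were higher, 4 of them called higher, and none was called lower; of all loci of that level, 56.5% were higher by any amount and 13.9% were called higher.

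Both of the highest ratios among members at that level belonged to this class. Os06g0152000, described as a dual-specificity protein phosphatase family protein, had 0.000848 at 22 °C and 0.117 at 42 °C. Its log2 ratio of 7.11 was the highest of the 6239 loci with a mean of at least 0.05 and a ratio. Os11g0180200, described as protein tyrosine phosphatase 1, had 0.00891 and 0.362, a log2 ratio of 5.34, at rank 7 of the same loci. Both have 1 transcript, and both reach a mean of 0.05 only through their scores at 42 °C. Their ranks and calls at that level are therefore not separate from the difference itself. Their scores at 22 °C are below the median of 0.0792 of all loci, and that of Os06g0152000 is by far the lower. The size of these ratios thus rests on a low denominator of unknown depth. With 0.1 added to every score both loci, and no other members, were called higher, where 255 of all 9994 loci were. Os09g0135700, a SIW14-like phosphatase, had 0.0603 and 0.140, and Os01g0739200, with a dual-specificity domain, had 0.0606 and 0.124.

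Other loci of the class were within 2-fold or had low scores. Os12g0112500, with a dual-specificity domain, had the highest score of the class, 0.374 at 22 °C and 0.460 at 42 °C. Os11g0113100, with the same description and named with its values known, had 0.0426 and 0.0803. Os12g0290600, similar to dual-specificity phosphatase 8, went the other way with 0.292 and 0.189, and so did Os01g0390900, a dual-specificity protein phosphatase-like protein, with 0.160 and 0.0879. The hyphen in the latter's description placed it outside the class; with it the class had a median of 0.30. The 2 loci called lower, both named with their values known, were Os12g0174800, a receptor or non-receptor type tyrosine phosphatase with 0.0822 and 0.00491, 16.7-fold lower, and Os08g0557400 with 0.0319 and 0.00622.

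Of the class, 3 loci are described by a PTPLA domain. That name recalls a tyrosine phosphatase, but plant proteins with this domain are known from Arabidopsis as dehydratases of fatty acid elongation. Os04g0271200 had 0.171 at 22 °C and 0.259 at 42 °C. The others, outside the rule for named loci, were Os01g0150200 with 0.0873 and 0.0829 and Os05g0460800 with 0.000142 and 0.00391. The last of these is among the loci of the class called higher. Without the PTPLA loci 13 loci had a median log2 ratio of 0.30, with 4 called higher and 2 called lower. Of all loci, 16.1% were called higher and 21.6% called lower. The kinase associated protein phosphatase Os03g0173500, which in Arabidopsis binds receptor kinases, is described without a family and had 0.0161 and 0.0184. It too is named with its values known.

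**Figure D4:**
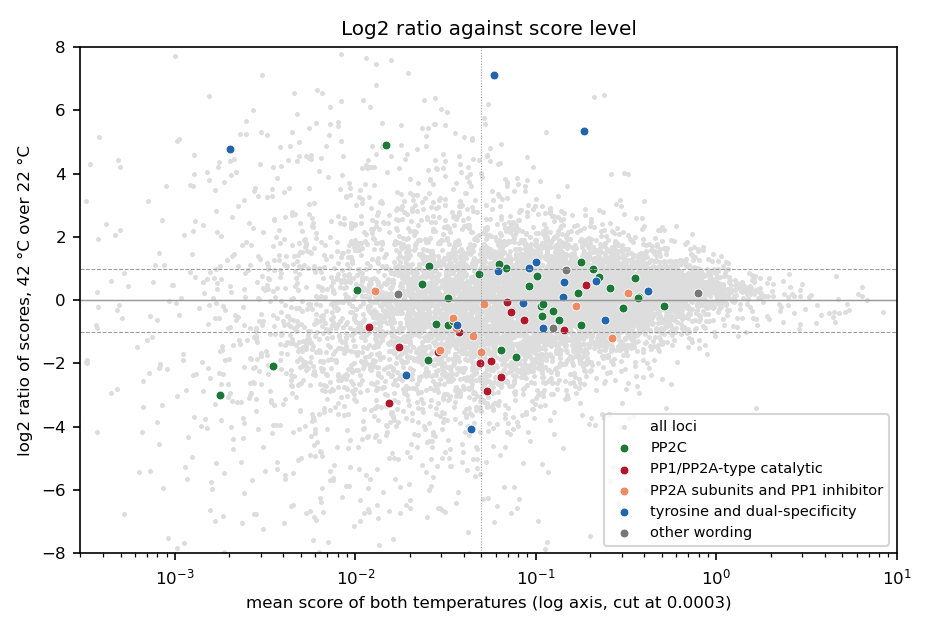
Log2 ratio of scores at 42 °C over 22 °C (vertical axis) against the mean score of both temperatures (log horizontal axis) for all loci (grey) and the members by class. Dashed lines mark 2-fold and the dotted line a mean score of 0.05; a few grey loci lie beyond the axes. Ratios spread widely at low scores and narrow to the right, and the PP1/PP2A-type catalytic subunits lie below 0 on both sides of the dotted line, with 1 exception.

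The level of a score moved with its ratio across the table, which bears on every count above. Loci with a mean below 0.05 had a median log2 ratio of -0.45 (3041 loci), those of at least 0.05 had 0.15 and those of at least 0.2 had 0.27. Protein phosphatases below 0.05 had a median of -0.84 over 29 loci, with 13 called lower and 3 called higher (44.8% and 10.3%, against 36.3% and 20.7% of all loci there). Those of at least 0.05 had 0.08 over 49 loci, with 6 called lower and 7 called higher (12.2% and 14.3%, against 14.4% and 13.9%). Beyond the values by level given above, the part of the score level in the differences between classes was not tested. Of the PP2C loci 12 of 34 with a ratio lay below 0.05, and of the others 17 of 44.

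Transcripts of the same locus often disagreed. Of 31 members with more than 1 transcript, 29 had at least 2 ratios, and in 16 of these (55.2%) all transcripts went the same way, against 72.4% of the 2290 such loci in the whole table. The PP1/PP2A-type catalytic loci had transcripts in the same direction in 5 of their 6 cases, Os05g0204900 being the exception, and Os03g0268000 and Os12g0617900 were among those lower in every transcript with a ratio.

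Transcripts at least 2-fold apart in opposite directions were found in 3 loci. In the ABI2-like PP2C Os05g0592800, transcript 02 had 0.0763 at 22 °C and 0.00976 at 42 °C, whereas transcript 03 had 0.0239 and 0.0481. In the PP2C Os06g0717800, transcript 01 had 0.0737 and 0.0273, and transcript 03 had 0.000968 and 0.0146. In the B55 subunit Os02g0617600, transcript 01 had 0.0197 and 0.00109, and transcript 02 had 0.00868 and 0.0271. The means of these loci, with log2 ratios of -0.67, -0.75 and 0.30, therefore hide opposite scores.

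In 5 loci, 6 transcripts carry a description of another kind. Of the tyrosine phosphatase Os01g0229100, which is named with its values known, transcript 01 is described as an interacting protein of translation initiation factor 3 and had 0.217 and 0.0657, while transcript 02, the phosphatase by description, had 0.0676 and 0.0889. Averaging transcripts with a matching description alone set the median of the other protein phosphatases to -0.41 and that of PP2C to 0.09.

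**Figure D5:**
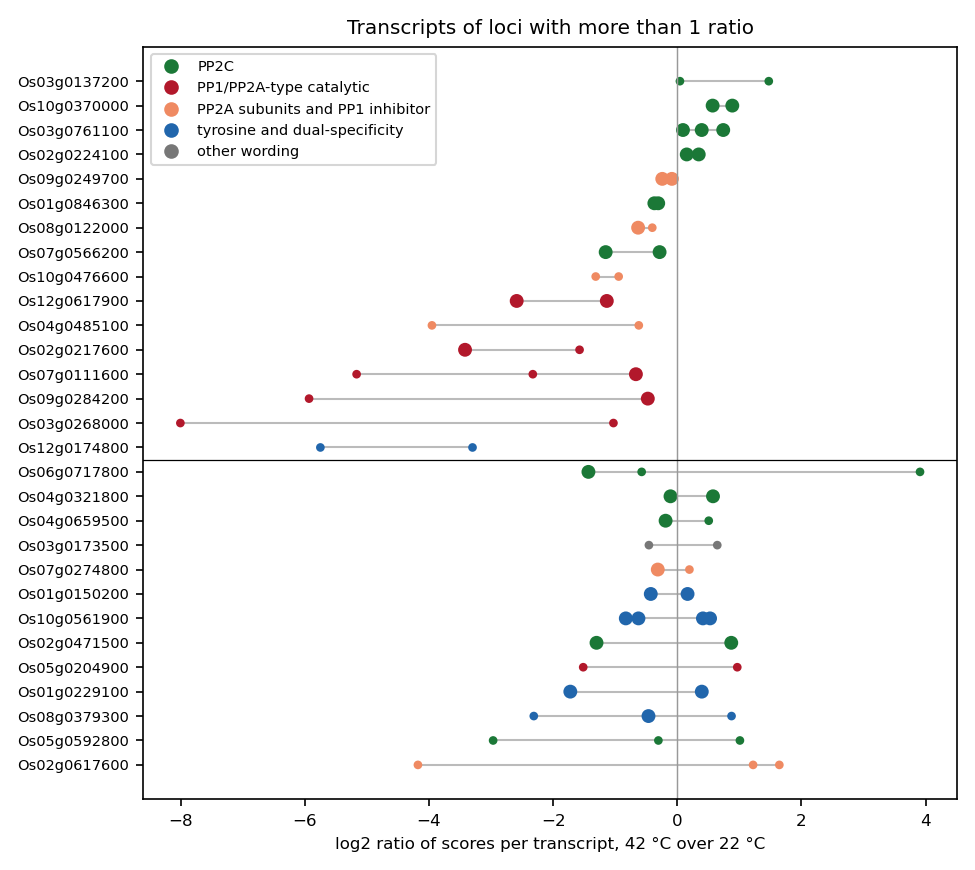
Log2 ratio of scores at 42 °C over 22 °C for each transcript (points) of the 29 member loci with at least 2 ratios; large points have a mean score of at least 0.05. Loci above the horizontal line have all transcripts on 1 side of 0 (16 loci), those below it on both sides (13 loci).

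Genes that work with or against protein phosphatases were set beside them by words in the descriptions. Protein kinases, the enzymes that add the phosphate groups, had a median log2 ratio of -0.20 over 192 loci with a ratio. Of these 35 were called higher (18.2%) and 57 called lower (29.7%), against 16.1% and 21.6% of all loci. Their highest and lowest loci with a mean of at least 0.05 were Os04g0619400 (0.0146 and 0.159) and Os07g0613500 (0.134 and 0.0178). Loci described with the words MAP kinase, which include the kinases upstream of them, had a median of 0.18 over 21 loci, 2 called higher (9.52%) and 4 called lower (19.0%), against 16.1% and 21.6% of all loci. The list holds a MAP kinase phosphatase, Os05g0115800 (0.0136 and 0.0178), that the words for members did not reach and that is named with its values known. The MAP kinase Os03g0285800 had 0.0746 at 22 °C and 0.275 at 42 °C, and the MAP kinase kinase Os06g0191300 had 0.434 and 0.311.

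Calcineurin B-like calcium sensors and the CIPK kinases they activate, some of which are bound by PP2C in Arabidopsis, had a median of -0.63 over 15 loci. Of these 4 were called higher and 4 called lower (26.7% each way, against 16.1% and 21.6% of all loci). Taking every transcript separately moved the median to -0.06, and it was -0.16 with the lowest-numbered transcript and -0.03 with 0.1 added to every score. CIPK29 (Os07g0678300) had 0.129 and 0.211, and CIPK9 (Os03g0126800) had 0.212 and 0.0779. Phosphatases outside the words used for members, most of which act on sugars, lipids or inorganic phosphates, had a median of -0.03 over 70 loci. Of these 12 were called higher (17.1%) and 19 called lower (27.1%), against 16.1% and 21.6% of all loci. Among these an endonuclease/exonuclease/phosphatase domain protein, Os10g0203000, had 0.0419 and 0.114, and an acid phosphatase, Os05g0190300, had 0.201 and 0.0341.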

How the data were processed

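Ribosome footprints of 4 rice shoot libraries, 2 at each temperature, were sequenced. The submitters' processing notes name cutadapt and Bowtie2 for the reads, without versions. The genome build, the annotation and how replicates were pooled are not given in these sources. The authors deposited a score per transcript in columns that carry only the temperature, per the file headers. The deposited difference was within 1e-05 of the score at 42 °C less that at 22 °C in all 14122 transcripts. Transcripts were averaged to 10455 loci, and log2 ratios were computed for the 9280 above 0 at both temperatures. No significance test was planned or run, since no value per library exists. Other folds, minimum scores, ways to reduce transcripts, centrings and classes were tried. The depth is unknown.

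Members, classes and lists were chosen by words in the descriptions, and 1 list and part of another by locus, with earlier results of these data known. Locus names replace the T of the transcript ID by g. The reference gene table named 0 members by locus. Named were members at least 2-fold apart with a mean at or above the 75th percentile, the 5 largest ratios each way in PP2C and in the others with a mean of at least 0.05, the 3 highest scores per class, the listed abscisic acid loci, members at 0 at 1 temperature, those with transcripts at least 2-fold apart in opposite directions, and the extremes of each related list. Other loci are marked. The step that makes the calls was checked on simulated scores. Python 3.11.15, numpy 2.4.6, pandas 2.3.3, scipy 1.17.1 and matplotlib 3.10.9 were used.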

Additional observations from a re-analysis of the deposited data

How the results depend on the processing

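No paired analysis was possible because the table holds 1 score per temperature and no column per replicate, and leaving out a replicate could not be run for the same reason. Depth is unknown, so low scores could not be weighted. Counts are given below as called higher and called lower.

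Of the alternatives to the values of classes and lists, 57 moved or changed sign, and 198 did not. For the 37 named loci with a ratio 15 alternatives moved the value, 12 of them with 0.1 added, where Os06g0152000 and Os11g0180200 alone kept a call (Os02g0217600 then had -0.78). No called locus turned its direction, but no setting could have turned a called locus with 1 transcript. Os02g0617600, not called at 0.30, had -4.18 with the lowest-numbered transcript. At 1.5-fold PP2C had 10 and 10 calls, the other phosphatases 8 and 22, and tyrosine and dual-specificity loci 5 called lower. Of all 9280 loci, 2580 were called higher and 2862 called lower at that fold. At 3-fold PP2C had 1 called higher, the others 3 and 9, subunits 1 called lower and the tyrosine class 3 called higher. Here 761 of all 9280 loci were called higher and 1253 called lower. With a mean score of at least 0.05, PP2C had 3 and 2 calls and the others 4 called lower. The PP1/PP2A-type catalytic loci had 3 called lower, subunits 1 and the tyrosine class 0. Among all 6239 loci at that level, 13.9% were called higher and 14.4% called lower. The difference between PP2C and the others was then 0.16, and the medians of SAPK kinases and of phosphatases outside the words turned to 0.92 and 0.053. With a mean of at least 0.2, PP2C had 0 and 0 calls, the others 0 and 1, subunits 1 called lower and the tyrosine class 0 and 0. No PP1/PP2A-type catalytic locus was left. Among all 2898 loci there, 11.6% were called higher and 7.52% called lower. The median of the other phosphatases turned to 0.23 over 6 loci, 0.016 below that of PP2C. Those of SAPK kinases, MAP kinases, protein kinases and outside phosphatases turned to 0.14, -0.18, 0.56 and 0.38. These minimums leave fewer loci, and the median ratio of the whole table is higher at such scores.

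With each transcript on its own PP2C had 8 and 8 calls, the others 23 called lower and PP1/PP2A-type catalytic loci 13 called lower. Subunits had 2 called higher and the tyrosine class 5 called lower. Of all 12108 transcripts with a ratio, 2044 were called higher and 2708 called lower. With the lowest-numbered transcript the SAPK median turned to 0.28; the cause was not tested. Centring on loci with a mean of at least 0.2 gave PP2C 1 and 8 calls and a median of -0.19, the others 3 called higher and the tyrosine class 3 and 4. It set the medians of MAP kinases and protein kinases to -0.084 and -0.47. Higher loci made up 30.04% of all calls in the table, against 42.8% without it. Under that centring 11.6% of all loci were called higher and 27.1% called lower. With 0.1 added to every score PP2C had 0 and 0 calls, the others 2 and 0 and the tyrosine class 2 and 0. The PP1/PP2A-type catalytic loci and subunits had 0 called lower. Few loci in the whole table were called with this addition, 255 higher and 273 lower of 9994. The catalytic median was then -0.27 and the difference between PP2C and the others 0.14, since the addition shrinks ratios of low scores. Across the 12 alternatives for it that difference kept its sign, between 0.016 and 0.78. The centrings subtract the same value from both medians and could not have changed it.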
